A study of Mus musculus with 9 samples.

Results

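H3K27ac, the acetyl group on lysine 27 of histone H3, was profiled in isolated lung endothelial cells of wild-type mice, and 114890 of the 1309635 regions in the deposited table made up its peak list. By ACT-seq, antibodies bound to permeabilised nuclei recruit a Tn5 transposase fused to Protein A/G, which inserts sequencing adaptors into the nearby DNA. The tested library was H3K27ac and its control was IgG, an antibody that recognises no histone mark, and each came from 1 sample. H3K9ac, H3K14ac, H3K18ac, H3K23ac, H4K8ac, H2AK5ac and H3K4me3 had 1 library each from the same cell type. The labels give no treatment, age or sex, and the series title places the profiles in work on cystine uptake and histone acetylation in vessels. The peaks were chosen from regions that share identifiers: 8 lists, each in genome order, had been joined, and the list with no region under 108 bp was the densest one in the H3K27ac library. With 1 library per target differences cannot be set against replicate error, so values are described without tests. The 95% intervals below are exact and cover counting error only. A mark present on few cells and a weak mark on all cells cannot be told apart in such a profile.

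H3K27ac is written by the acetyltransferases p300 and CBP, removed by class I histone deacetylases, and read by bromodomain proteins. It lies on nucleosomes beside active promoters and active enhancers, whereas H3K4me3 is the mark of promoters. Polycomb complexes methylate the same lysine at silent developmental genes, so a given tail carries either the acetyl or the methyl group. In endothelium, enhancers of identity genes are bound by ETS factors such as ERG and FLI1, and many of them carry this acetylation.

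The H3K27ac library held 2533242 reads in the table and the IgG library 365999, and the other 7 libraries held 1477463 to 10044130. H3K27ac reads were spread over 59.2% of the 578465 identifiers with at most 155 reads in 1 identifier, whereas IgG reads lay in 903 identifiers with up to 11840 in 1. In its 100 highest identifiers IgG had 74.2% of its reads, against 0.460% for H3K27ac in its own 100. Identifiers that lie wholly on the mitochondrial genome took 0.00288% of H3K27ac reads (0.00226 to 0.00362%) and 6.51% of IgG reads (6.43 to 6.59%). At these depths 1 read equals 0.395 CPM (reads scaled to the table total of the library) for H3K27ac and 2.73 CPM for IgG, so that 3 reads, the limit used for a count of 0, equal 8.20 CPM in IgG.

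Promoter sequences are shown for 6 genes that the values below turn on. Each runs 300 bases, from 250 before to 50 after a transcription start, 5′ to 3′ along the gene, as listed by RefSeq for GRCm38.p6. Capitals mark matches to any of 9 short motifs on either strand, which are spelled out further on. Kdr encodes VEGF receptor 2, Tie1 an angiopoietin co-receptor and Egfl7 a secreted endothelial protein, and their windows at chr5:75978406-75978705 (minus strand), chr4:118489800-118490099 (minus) and chr2:26580833-26581132 (plus) had 300, 300 and 298 bases under H3K27ac peaks. Slc7a11, the cystine-glutamate exchanger of the study's title, and Ep300, the gene of p300, were covered whole at chr3:50443564-50443863 (minus) and chr15:81585964-81586263 (plus). Crebbp, the gene of CBP, is shown because its window at chr16:4213355-4213654 (minus) had 0 covered bases between a pair of flanking peaks.
Kdr: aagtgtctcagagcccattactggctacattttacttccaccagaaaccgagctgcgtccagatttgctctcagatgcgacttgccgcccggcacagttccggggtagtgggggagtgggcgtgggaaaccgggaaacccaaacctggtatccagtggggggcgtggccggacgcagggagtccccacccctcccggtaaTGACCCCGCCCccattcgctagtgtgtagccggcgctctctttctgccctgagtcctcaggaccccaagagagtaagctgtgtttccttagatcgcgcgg
Tie1: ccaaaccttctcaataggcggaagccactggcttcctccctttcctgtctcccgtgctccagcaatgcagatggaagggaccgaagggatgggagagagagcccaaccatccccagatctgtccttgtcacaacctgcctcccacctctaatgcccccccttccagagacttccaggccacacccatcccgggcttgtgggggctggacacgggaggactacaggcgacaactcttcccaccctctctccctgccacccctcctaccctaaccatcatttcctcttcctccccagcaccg
Egfl7: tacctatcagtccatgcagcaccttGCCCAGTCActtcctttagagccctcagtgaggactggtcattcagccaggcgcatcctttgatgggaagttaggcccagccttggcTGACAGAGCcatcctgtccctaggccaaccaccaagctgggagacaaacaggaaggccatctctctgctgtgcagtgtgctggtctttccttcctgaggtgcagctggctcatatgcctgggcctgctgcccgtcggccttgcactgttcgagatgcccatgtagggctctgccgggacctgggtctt
Slc7a11: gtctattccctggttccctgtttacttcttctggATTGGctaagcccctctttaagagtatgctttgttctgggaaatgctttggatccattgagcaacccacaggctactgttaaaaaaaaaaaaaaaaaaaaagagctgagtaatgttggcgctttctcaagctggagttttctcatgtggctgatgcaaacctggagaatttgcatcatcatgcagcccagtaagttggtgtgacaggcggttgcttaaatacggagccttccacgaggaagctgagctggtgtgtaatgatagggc
Ep300: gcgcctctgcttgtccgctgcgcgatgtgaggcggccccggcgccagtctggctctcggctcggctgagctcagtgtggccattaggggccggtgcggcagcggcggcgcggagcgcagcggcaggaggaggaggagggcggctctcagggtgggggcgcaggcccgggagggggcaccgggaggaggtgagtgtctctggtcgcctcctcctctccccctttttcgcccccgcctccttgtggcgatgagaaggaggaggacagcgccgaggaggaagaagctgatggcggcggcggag
Crebbp: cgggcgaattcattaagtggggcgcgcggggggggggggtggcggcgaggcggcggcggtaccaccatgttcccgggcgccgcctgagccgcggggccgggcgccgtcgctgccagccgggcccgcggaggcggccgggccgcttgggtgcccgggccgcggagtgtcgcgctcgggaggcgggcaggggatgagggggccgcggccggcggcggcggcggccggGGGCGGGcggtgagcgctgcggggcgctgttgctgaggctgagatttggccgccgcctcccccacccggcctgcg

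These windows differed in base composition. G and C made up 60.7% of the Kdr window, 60.3% of Tie1, 58.3% of Egfl7, 44.7% of Slc7a11, 72.3% of Ep300 and 82.0% of Crebbp. The observed over expected ratio of CpG, which is near 1 in CpG islands, was 0.69 for Kdr, 0.80 for Ep300 and 1.02 for Crebbp. It was 0.29 for Tie1, 0.20 for Egfl7 and 0.27 for Slc7a11, so 3 of the 5 covered windows were poor in CpG. The capitals in Kdr are an SP/KLF match and an antioxidant response match that overlap, those in Egfl7 are 2 antioxidant response matches, and those in Slc7a11 are 1 NF-Y match.

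The H3K27ac library was set against IgG first over identifiers, without separating the lists. Of 80966 identifiers with at least 10 reads over both libraries, 80341 were at least 2-fold higher in H3K27ac than in IgG (99.2%) and 472 were at least 2-fold lower (0.583%). A prior count of 2, scaled to the total of each library, was added to the counts before the log2 CPM difference was taken. Among the identifiers tested 80274 had no IgG read, and the median of those tested was 16 H3K27ac reads (quartiles 12 and 24). With 0 IgG reads the minimum of 10 reads by itself gave a difference above 2-fold. For those 80274 the call was therefore fixed by the filter. With IgG raised to the limit of 3 reads in every identifier, a rule added after the data were seen, 42 H3K27ac reads were needed. Then 4527 identifiers (5.59%) were at least 2-fold higher and 9074 (11.2%) at least 2-fold lower. Of the 472 lower identifiers, 5 were wholly mitochondrial and 440 had all their regions on the 21 chromosomes used. The other 27 had a region outside these chromosomes and were not wholly mitochondrial, and their remaining regions may lie on chromosomes.

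Identifiers that hold an H3K27ac peak took 58.6% of H3K27ac reads and 61.7% of IgG reads, so the share of reads alone did not separate the libraries. How many identifiers were reached did: 91.5% of the identifiers with a peak had an H3K27ac read, against 0.451% with an IgG read. Among identifiers without such a peak the shares were 51.1% for H3K27ac and 0.0831% for IgG. Every identifier with a peak also holds regions of the longer H3K14ac, H4K8ac and H3K18ac lists at unrelated places. Their counts are therefore sums and cannot be given to a gene. Identifiers with a peak hold 4 to 8 regions and those without hold 1 to 3, so the 2 groups also differ in how many regions are summed. With 3 regions 77.7% had an H3K27ac read, and with 4 regions 84.1%.

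Reads could be tied to the H3K27ac peaks through their unshared bases, those that no region of another identifier covers, because a read touching regions of several identifiers was not counted. The list covered 27680 kb, of which 3298 kb (11.9%) were unshared. Fitted over all identifiers by non-negative least squares, its unshared bases held 44.2 H3K27ac CPM per kb and 22.3 IgG CPM per kb, a ratio of 1.98. Without the 100 identifiers richest in IgG the values were 44.2 for H3K27ac and 3.95 for IgG, a ratio of 11.2, so these few identifiers set the IgG value. H3K18ac was the library next to H3K27ac among the acetylation marks in these bases, with 9.83 CPM per kb, followed by H4K8ac with 4.76 and H3K14ac with 1.16, while H3K9ac, H3K23ac, H2AK5ac and H3K4me3 were fitted at 0. In unshared bases of the other 7 lists H3K27ac reads ran from 5.64 CPM per kb in the H3K14ac list to 13.4 in the H3K4me3 list. There IgG, with its richest identifiers kept, ran from 0 in the H4K8ac list to 28.4 in the H3K4me3 list. It was above H3K27ac in the H3K14ac, H3K18ac, H3K9ac and H3K4me3 lists and below it in the H4K8ac, H3K23ac and H2AK5ac lists.

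For 220 peaks the H3K27ac peak was the only region of its identifier with unshared bases, so the counting rule gives every counted read to it. Such reads are called its own below. Peaks at chr8:22165528-22165653 and chr8:4227097-4227204 had 167 and 162 H2AK5ac reads, and a peak at chr7:16248516-16248623 had 125 H3K9ac reads. Both marks were fitted at 0 in this list, and whether those reads came from these peaks was not tested. Over their 15.1 kb of unshared bases these peaks had 1452 H3K27ac reads (1378 to 1529) and 0 IgG reads (up to 3 by the limit), 37.9 CPM per kb (36.02 to 39.95) against a limit of 0.543 CPM per kb for IgG. Set against that limit, taken over the group, H3K27ac was 69.9-fold higher. The exact upper bound for 0 IgG reads is 3.69 reads, or 0.667 CPM per kb. The list was named for its density in the H3K27ac library, and IgG reads lay in 0.156% of all identifiers. A high H3K27ac value and a count of 0 in IgG therefore do not test these peaks. Reads were present in 145 of the 220 for H3K27ac and in 0 for IgG. Where all bases were unshared, 67 of 71 peaks had H3K27ac reads, with a median of 12 and a range of 0 to 46. Chromosome 8 held 72 of the 220, chromosomes 7 and 9 held 42 each and chromosome 6 held 24, so these peaks do not sample the genome evenly.

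The peak with most reads of its own lay at chr6:99375552-99375825, inside Foxp1, a forkhead repressor gene, and 147 kb from its nearest end. It had 46 H3K27ac reads (33.7 to 61.4) and 0 IgG reads, with 9 H3K18ac and 7 H4K8ac reads. The next, chr3:53271857-53272093, 10.2 kb outside Lhfp, had 37 H3K27ac and 0 IgG reads. A peak at chr9:13485692-13485893 inside Maml2, which encodes a Notch coactivator, had 34 H3K27ac and 0 IgG reads, and none from H3K18ac or H4K8ac. At chr8:22165528-22165653 inside Nek3, a kinase gene, 31 H3K27ac reads stood beside 167 H2AK5ac reads and 0 IgG reads, although no other list covers the peak. The other 6 of the 10 with most reads had 24 to 26 H3K27ac reads and 0 IgG reads each, near Frmd4b, Usp31, Clec18a, Lars2 and Bcar3 and inside Thsd4. Beside Clec18a the peak also had 32 H3K4me3 reads.

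**Figure D1:**
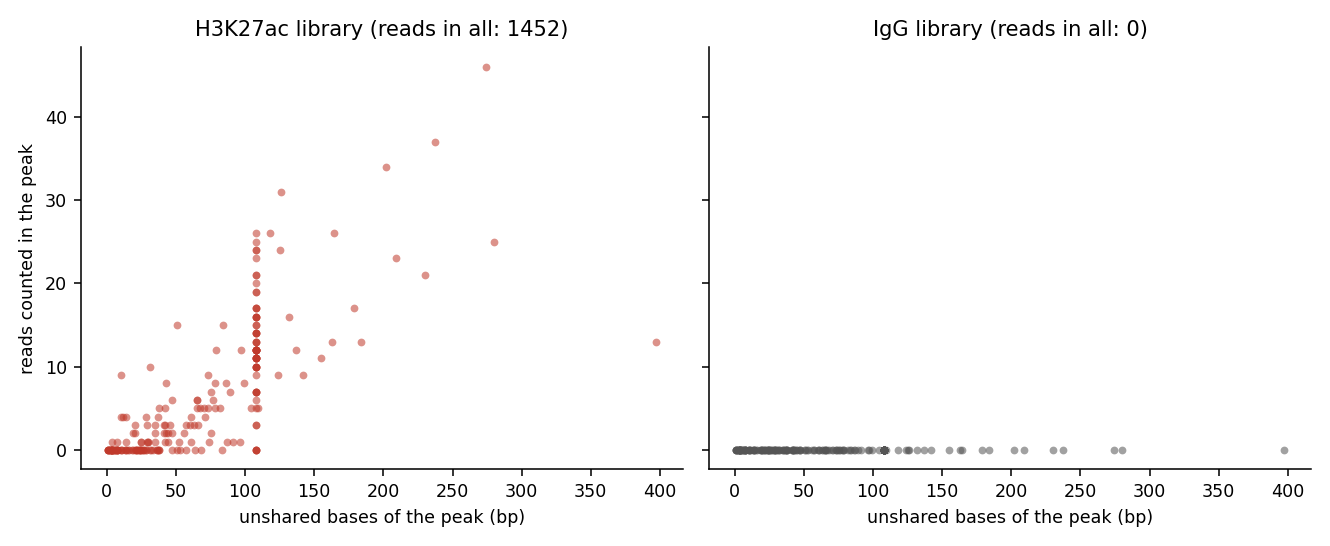
Reads counted in each of the 220 H3K27ac peaks that have reads of their own (vertical axis) against the unshared bases of the peak in bp (horizontal axis), for the H3K27ac library on the left and the IgG library on the right. H3K27ac points reach 46 reads, with 75 peaks at 0, and all 220 IgG points lie at 0.

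H3K27ac peaks were narrow. Their median width was 192 bp (quartiles 122 and 297), 22994 of them (20.01%) had the list's minimum of 108 bp, and the widest had 1930 bp. The minimum was commonest in the H3K14ac list, at 80.9% of its regions, and rarest in the H3K27ac list. Of the 112396 peaks on chromosomes 1 to 19, X and Y, 20.3% (20.04 to 20.5%) lay within 2 kb of an end of a protein-coding gene, 45.4% lay inside such a gene away from its ends, and 34.3% lay outside. The centres of 26.5% were over 50 kb from the nearest gene end. Within 2 kb of a listed 5′ end lay 15.2%, and within 2 kb of a 3′ end and of no 5′ end 2.84%. The table of starts covers 17492 of 21887 genes and no gene of chromosome 18, so the share at 5′ ends is a lower bound.

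Width and place went together. Within 2 kb of a gene end lay 11.7% of peaks of 108 bp, 16.1% of those up to 200 bp, 19.1% up to 400 bp, 43.6% up to 800 bp and 74.7% of the 1431 wider ones. An H3K4me3 peak overlapped 7.55% of the narrowest class and 97.8% of the widest.

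**Figure D2:**
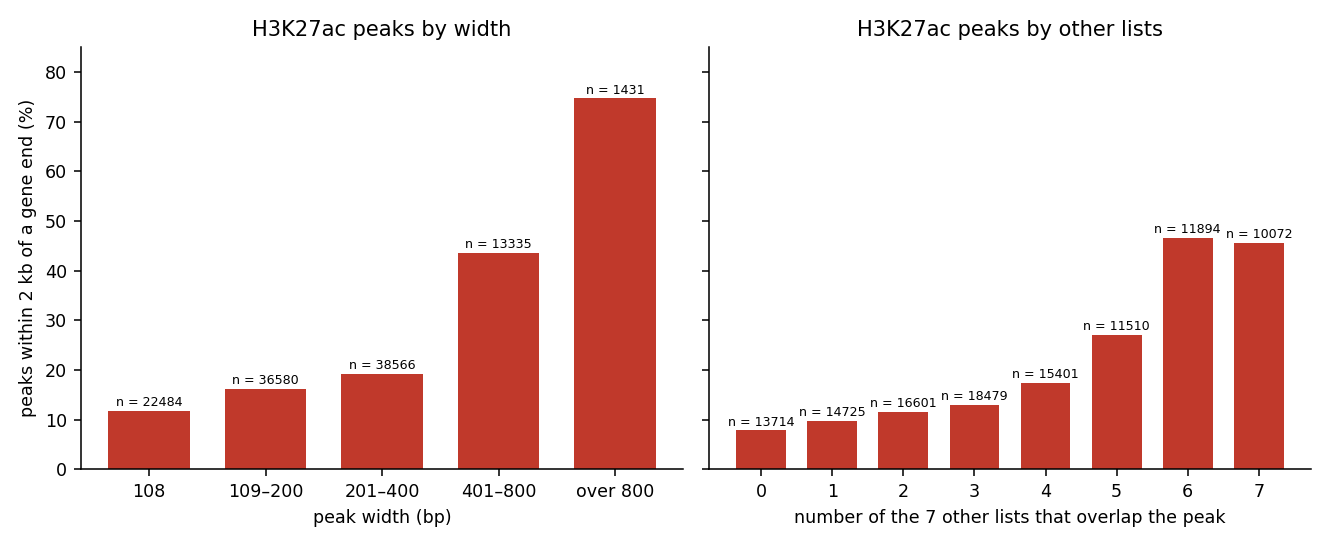
Share of H3K27ac peaks within 2 kb of a gene end (vertical axis, percent) by peak width in bp on the left and by how many of the 7 other lists overlap the peak on the right, with the number of peaks above each bar. The share runs from 11.7% to 74.7% over width, and from 7.82% with no other list to 46.6% with 6 and 45.7% with 7.

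At 21238 listed 5′ ends, H3K27ac peaks covered 44.6% of ends in the 100 bp before the start and 41.0% in the 100 bp after it, against 1.31% at 4 to 5 kb. Coverage was 22.2% at 250 bp before the start and 24.4% at 250 bp after it. H3K27ac coverage was below H3K4me3 coverage on both sides: 44.6% against 48.3% in the 100 bp before the start, 22.2% against 31.1% at 250 bp before it and 7.78% against 13.1% at 550 bp before it. At 550 bp inside the gene H3K27ac peaks covered 12.03% of ends and H3K4me3 peaks 32.7%. H3K18ac and H4K8ac followed H3K27ac, with 43.4% and 42.5% before the start. At 17492 3′ ends H3K27ac coverage dipped to 0.719% in the last 100 bp of the gene, against 2.01% at 4 to 5 kb. The 5 other lists profiled dipped there too, from 0.761% for H3K9ac to 1.91% for H3K14ac, against 1.67% and 3.67% at 4 to 5 kb.

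**Figure D3:**
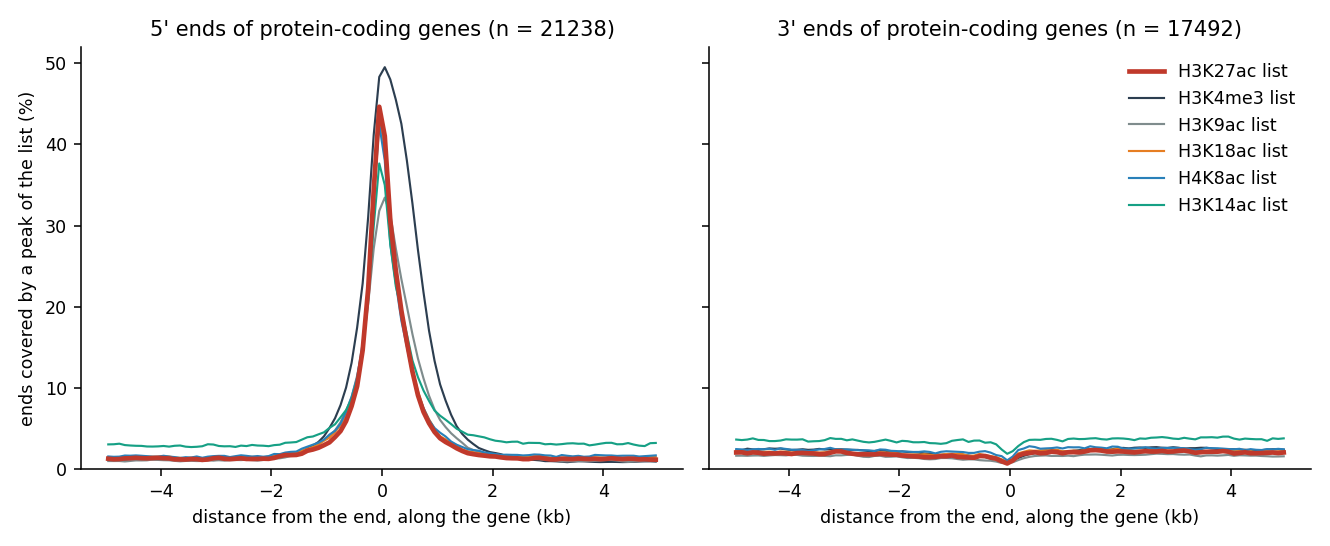
Share of listed ends covered by a peak (vertical axis, percent, 100 bp bins) against distance from the end along the gene in kb, for 21238 5′ ends on the left and 17492 3′ ends on the right, in the H3K27ac list (thick red) and 5 other lists. H3K27ac coverage is highest just before the 5′ end, at 44.6%, and H3K4me3 coverage is broader on the gene side. At 3′ ends every list shown dips, H3K27ac to 0.719%.

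The other lists overlapped the H3K27ac peaks to unequal degrees, counted at 1 shared base or more. H3K18ac peaks overlapped 72.4% of H3K27ac peaks, and H3K27ac peaks overlapped 49.1% of H3K18ac peaks. For H4K8ac the shares were 67.0% of H3K27ac peaks and 44.1% of H4K8ac peaks, and for H3K14ac, whose list is 578465 regions long, 63.8% and 12.99%. H2AK5ac shared 31.4% of H3K27ac peaks and 54.98% of its own, H3K23ac 31.0% and 38.3%, H3K4me3 30.5% and 53.6%, and H3K9ac 28.1% and 63.1%. The lists hold 48943 to 578465 regions, so the order of these shares is a description. No other list met 12.2% of H3K27ac peaks, with a median width of 108 bp, and all 7 met 8.96%, with a median of 460 bp.

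H3K27ac peaks with and without the promoter marks lay in different places. The 22087 with both H3K4me3 and H3K9ac peaks (19.7%) had a median width of 379 bp and 56.2% lay within 2 kb of a gene end. The 68555 with neither (61.0%) had a median of 151 bp, 7.45% lay at gene ends, and their centres were a median of 26.3 kb from the nearest end. Other acetylations were common without H3K4me3: 37366 H3K27ac peaks with no H3K4me3 peak (33.2% of all) met both an H3K18ac and an H4K8ac peak, and their median width was 218 bp. Within 2 kb of 5′ ends 83.2% of H3K27ac peaks met an H3K4me3 peak and 84.9% an H3K18ac peak, against 18.2% and 69.6% away from gene ends.

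The widest H3K27ac peak, of 1930 bp at chr13:58401422-58403351, lay at the ends of Hnrnpk, which encodes an RNA-binding protein, and Rmi1. Peaks of 1810 bp at Scaf11, 1682 bp in Nsd1, a histone methyltransferase gene, and 1662 bp at Hmga2, which encodes a chromatin architectural protein, lay near gene ends too. The other wide ones there were at Stk24, Eif4g2, Opa3, Macir and Ube2d3, of 1568 to 1634 bp. An exception was chr3:52327900-52329591, of 1692 bp, which lay inside Foxo1, a forkhead factor gene known for its part in endothelial growth control, 21.4 kb from the nearest end. Further wide peaks over 2 kb from an end lay inside Prdm10 (1493 bp), Gabpb1 (1363 bp), Ap5b1 (1318 bp) and Fmnl3 (1242 bp), 24.6 kb from Smad7 (1334 bp), which encodes an inhibitor of TGF-beta signalling, and near Ier3, Basp1 and Tgfbi. One of 1312 bp at chr17:39843056-39844367 was 107 kb from the nearest coding gene. All 10 of the widest peaks met all 7 other lists.

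Genes were read by the bases under H3K27ac peaks, which measure where peaks were called and not how strong the signal was. An H3K27ac peak lay within 2 kb of an end of 13818 of 21887 protein-coding genes (63.1%), with a median of 327 bp, and over the gene span with 2 kb flanks in 15681 genes (71.6%), with a median of 570 bp or 18.6 bp per kb. A listed 5′ end had a peak within 2 kb in 10650 of 17492 genes (60.9%). The gene lists below are set beside these shares.

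Defining endothelial markers carried peaks. Of 10 markers, 9 had an H3K27ac peak over their span, with a median of 3426.5 bp, against 71.6% and 570 bp for all genes. Lung epithelium had 4 of 7 (median 368 bp, with Epcam, Nkx2-1 and Ager at 0) and leukocytes 5 of 7 (286 bp, with Ptprc and Cd3e at 0). Mesenchyme and mural cells had 5 of 7 (738 bp, with Dcn and Rgs5 at 0) and neurons 2 of 4 (643 bp, with Snap25 and Gad1 at 0). The 5 of 7 of leukocytes and of mesenchyme were thus near the share of all genes. Medians of mesenchyme and of neurons were above that of all genes. The exception among endothelial markers was Cldn5, the tight junction gene, which had no region of any of the 8 lists over its span. Some markers of other cells did have peaks: Sftpc, the surfactant protein C gene of alveolar type 2 cells, had 503 bp. Covered bases over a span also grow with gene length. Per kb, the endothelial markers ran from 0 (Cldn5) to 103 bp (Egfl7), with Erg at 19.4, Tie1 at 20.1 and Tek at 27.3. The highest in each other type were Sftpc at 70.4, Csf1r at 35.6, Acta2 at 46.8 and Syn1 at 28.6, so the ranges overlapped. The part that other cells in the preparation have in the H3K27ac peaks was not tested.

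Endothelial surface and junction genes had H3K27ac peaks at their ends in 22 of 24 cases (91.7%, against 63.1% of all genes), with a median of 846.5 bp against 327 bp. Per length of span their median was 66.2 bp per kb against 18.6 for all genes. Cdh5, which encodes VE-cadherin of adherens junctions, had 12 peaks over 3073 bp, or 65.5 bp per kb, with a peak of 461 bp at chr8:104101376-104101836 over its lower-numbered end and the widest, 590 bp, at chr8:104121657-104122246 inside the gene. Pecam1, the gene of the junction protein CD31, had 15 peaks over 4474 bp, and its widest, 642 bp at chr11:106674563-106675204, also lay inside. Flt1, which encodes VEGF receptor 1, had 18 peaks over 4184 bp, and Eng, the gene of the BMP co-receptor endoglin, 13 over 3850 bp.

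The VEGF and angiopoietin genes had peaks at their ends in 18 of 19 cases (94.7%), with a median of 584 bp. Kdr had 16 peaks over 3780 bp, and 1 of 601 bp at chr5:75978167-75978767 covered the start printed above. A peak of 545 bp, chr5:75933524-75934068, lay near its far end. The semaphorin and VEGF receptor gene Nrp2 had 28 peaks over 7233 bp, and Tek, the gene of the angiopoietin receptor TIE2, 14 over 3817 bp. Vegfa, which encodes the ligand, had 2 peaks over 373 bp, and Aplnr, the apelin receptor gene, had 0. With 5 kb windows at the ends all 19 genes, Aplnr among them, had a peak.

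Endothelial transcription factor genes had peaks at their ends in 23 of 24 cases (95.8%), and all 24 had one over the span, with a median of 74.3 bp per kb. Among the ETS genes, Etv6 had 35 peaks over 9737 bp, Ets1 29 over 7173 bp and Fli1 30 over 6795 bp. Erg, the ETS gene most tied to endothelial identity, had 20 peaks over 4491 bp in a span of 227 kb, or 19.4 bp per kb. Within 2 kb of its 3 listed starts lay 328, 0 and 133 bp, and 10 of its 20 peaks lay 77.7 to 101 kb from its lower-numbered end, beside the internal start at 95459348. Short genes were denser: Klf4, a flow-responsive factor gene, had 174 bp per kb, Hhex 150 and Sox18 144. Foxf1, a forkhead gene of lung mesenchyme and capillaries, had the fewest covered bases, 40 bp.

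**Figure D4:**
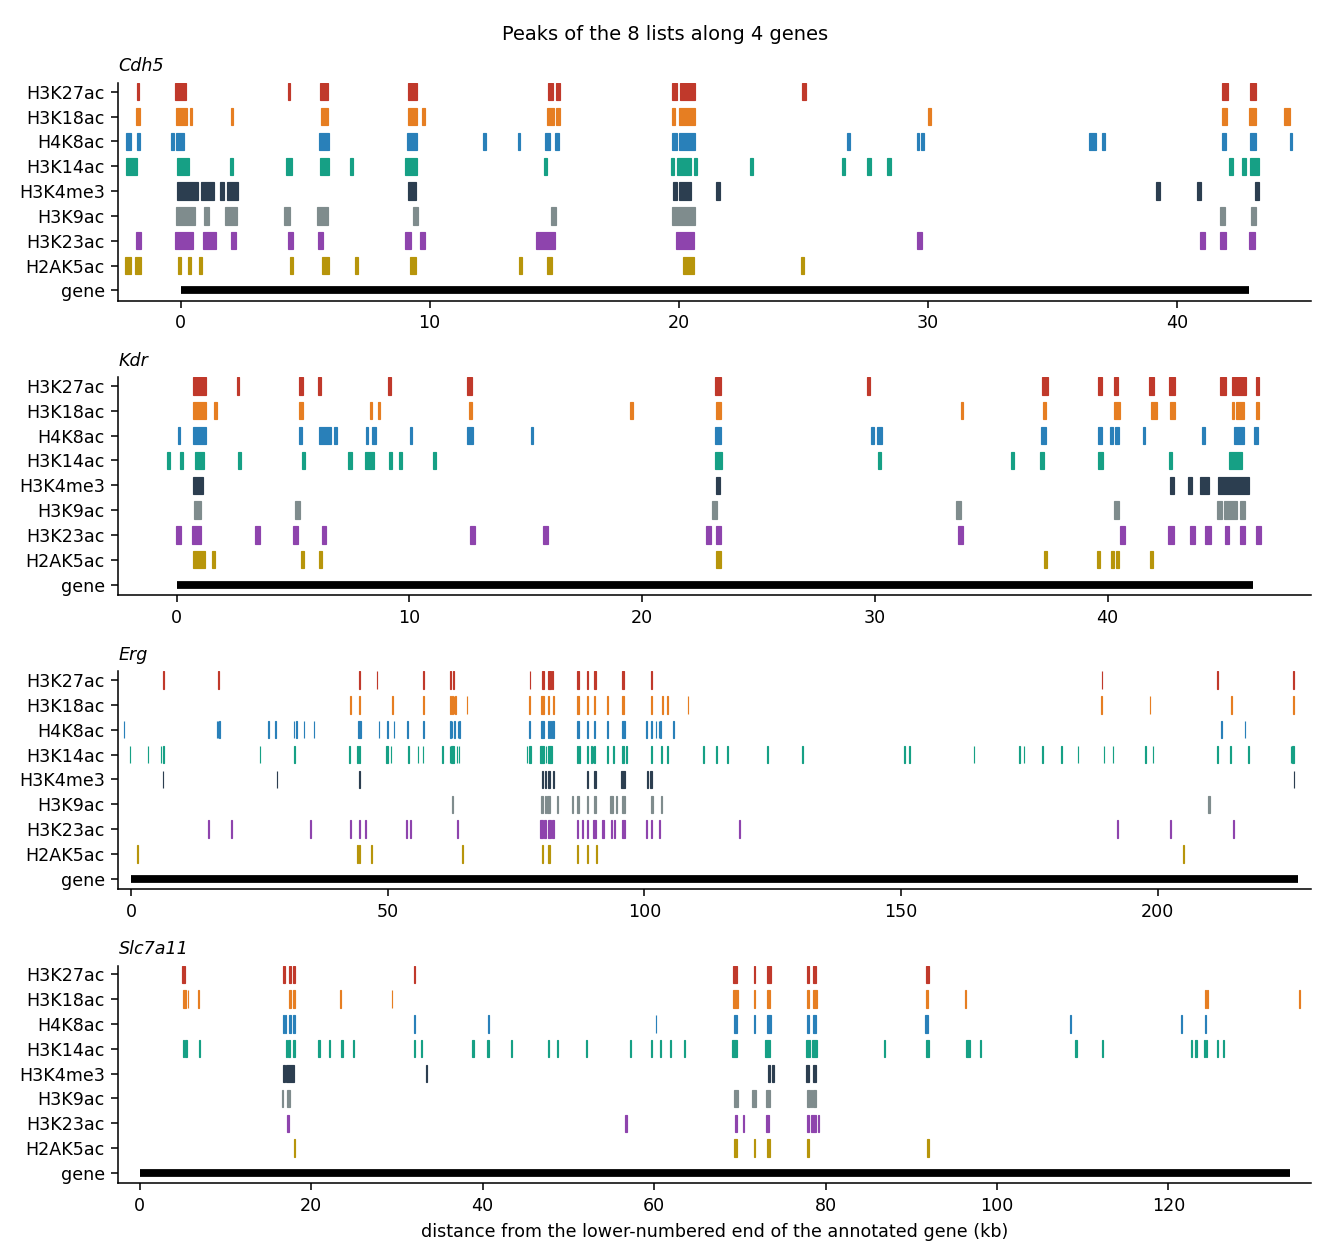
Peaks of the 8 lists along Cdh5, Kdr, Erg and Slc7a11 (bars to scale, 1 row per list, the H3K27ac list on top and the annotated gene in black at the bottom), by distance in kb from the lower-numbered end of the gene. Of the 20 H3K27ac peaks of Erg, 10 lie between 77.7 and 101 kb, and of the 11 of Slc7a11, 5 lie between 69.4 and 78.8 kb, the last over its listed start, and 3 between 16.8 and 17.99 kb.

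Notch and arterial genes had peaks at their ends in 15 of 17 cases (88.2%). Unc5b, a netrin receptor gene, had 20 peaks over 5568 bp, Notch1 13 over 3773 bp and Efnb2, the arterial ephrin gene, 9 over 3033 bp. The Notch ligand gene Jag1 had 1566 bp at its ends and Dll4 839 bp, whereas Jag2 had 0 there and Gja5, the arterial connexin 40 gene, had 0 over its whole span. Venous and lymphatic genes had peaks in 14 of 15 cases (93.3%). Reln had 32 peaks over 6259 bp, Prox1, the master factor gene of lymphatic identity, 15 over 3733 bp, and Flt4, which encodes VEGF receptor 3, 19 over 3506 bp. Ccl21a, a lymphatic chemokine gene, had none.

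Lung capillary genes were close to the share of all genes, with peaks at the ends of 10 of 17 (58.8%, against 63.1% of all genes), a median of 387 bp there against 327 bp, and 21.2 bp per kb of span against 18.6. With 5 kb windows 13 of 17 had a peak (76.5%), against 70.4% of all genes. Car4, Fibin, Gpihbp1, Aplnr, Hpgd and Sema3c had no H3K27ac peak over their span. Car4 marks aerocytes, the capillary cells of gas exchange, and Gpihbp1 and Aplnr mark general capillary cells. Regions of other lists lay over all 6, in 1 list for Aplnr, that of H3K14ac, and up to 5 for Sema3c. Liver, pancreas and muscle genes without an H3K27ac peak had such regions too, in 1 list for Acta1 and up to 5 for Ckm. These regions therefore do not set the 6 capillary genes apart. Ptprb, a vascular phosphatase gene, had 15 peaks over 3607 bp, Plvap, which encodes the protein of fenestral diaphragms, 6 over 1779 bp and Kit 5 over 1647 bp. Vascular tone and haemostasis genes had peaks in 16 of 19 cases (84.2%). Ece1, which processes endothelin, had 27 peaks over 6970 bp, Selp, the P-selectin gene, 8 over 2273 bp and Vwf 12 over 2189 bp. Agtr1a and Gucy1a1 had none.

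Immediate-early genes, which respond quickly to growth factors and stress, all had peaks at their ends (22 of 22), with a median of 955 bp and 129 bp per kb of span. Myc had 1665 bp at its ends, Junb 1573 bp, Fosl1 1560 bp and Fos 1115 bp, and Egr3 the least, 203 bp. Housekeeping genes, for comparison, had peaks in 21 of 22 cases with a median of 840.5 bp, or 89.3 bp per kb.

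The enzymes that act on H3K27 had peaks at their own genes. All 7 acetyltransferase and reader genes had one at their ends (median 725 bp), as did 10 of 11 genes of deacetylases and corepressors (878 bp) and all 6 of methyltransferases and demethylases (968.5 bp). Ep300 had 4 peaks, 1 of them of 1338 bp at chr15:81585110-81586447, which spans the printed start. Crebbp had 9 peaks over 1808 bp, and those of 378 bp and 369 bp at chr16:4212956-4213333 and chr16:4214041-4214409 flank the uncovered window printed above. Kdm6b, the gene of the H3K27 demethylase JMJD3, had 12 peaks over 3421 bp.

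Cystine, cysteine and glutathione genes had peaks at their annotated ends in 24 of 30 cases (80%) and over their span in 29 of 30. Slc7a11 was among the 6 without one at its ends, yet it had 11 peaks over 2807 bp, and its listed start, at 50443613, lies inside the annotated gene. Within 2 kb of that start lay 600 bp, with a peak of 364 bp at chr3:50443507-50443870 over the start itself. Gpx4, the glutathione peroxidase gene that guards membrane lipids, and Txnrd1, the thioredoxin reductase gene, likewise had 0 bp at annotated ends and 1106 and 1061 bp at a listed start. Slc3a1, Slc7a9 and Txnrd2 had 0 bp at both, and Slc7a9, a renal cystine transporter gene, none over its span. Gsr, the glutathione reductase gene, had 9 peaks over 2494 bp and Slc3a2, which encodes the heavy chain that partners SLC7A11, 6 over 1673 bp. Acetyl-CoA supply genes had peaks at the ends in 20 of 20 cases (median 734.5 bp), from Mpc1 of the mitochondrial pyruvate carrier with 1316 bp to Acss1 with 206 bp. Amino acid and oxidative stress response genes had them in 17 of 19, and all 17 of those with a listed start had one within 2 kb of it. Nfe2l2, the gene of NRF2, had 1475 bp at its ends and Atf4 1147 bp.

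Lists for other lineages were lower. Lung epithelium markers had peaks at the ends in 8 of 20 cases (40%), leukocyte markers in 8 of 21 (38.1%), mesenchyme, pericyte and smooth muscle markers in 9 of 20 (45%), neuronal genes in 4 of 18 (22.2%), liver, pancreas and muscle genes in 5 of 20 (25%) and developmental transcription factors in 8 of 30 (26.7%). Median covered bases at the ends were 0 in each of these 6 lists. For peaks wider than 108 bp the counts were 2 for neuronal genes, 3 for liver, pancreas and muscle genes and 5 for developmental factors, and with 5 kb windows 13 for leukocyte markers and 8 for neuronal genes. Olfactory receptor genes had a peak in 33 of 1110 cases (2.97%). In the epithelial, leukocyte, mesenchymal, neuronal and liver, pancreas and muscle lists the members with the most covered bases were Abca3 (1625 bp over the span), Spi1 (1199 bp), Cspg4 (2011 bp), Syn1 (1844 bp) and Apoa2 (728 bp). Epithelial keratin genes Krt8 and Krt18 had 842 and 495 bp at their ends.

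**Figure D5:**
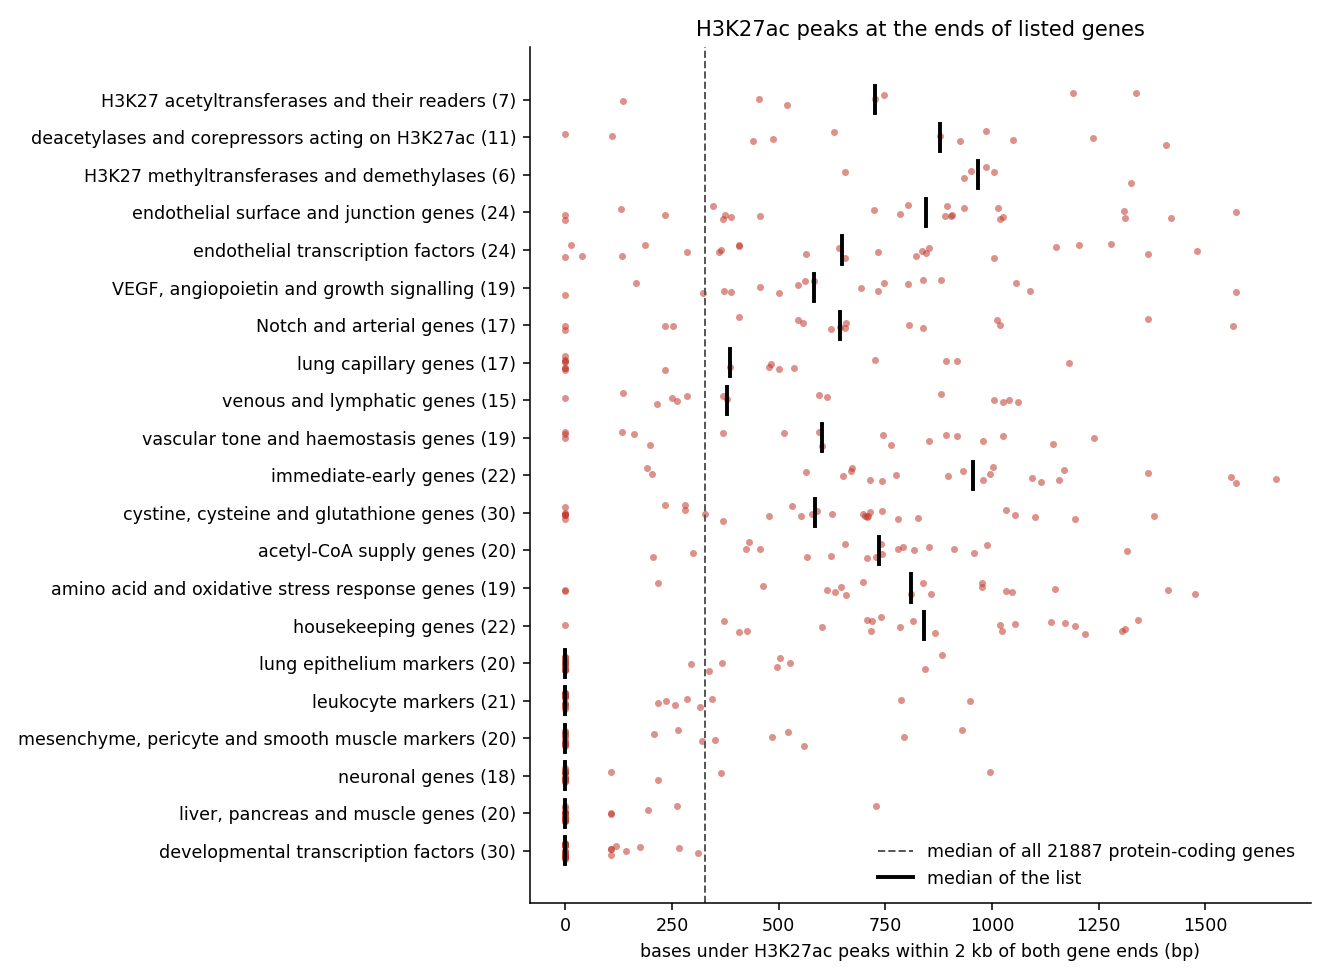
Bases under H3K27ac peaks within 2 kb of both gene ends (horizontal axis, bp) for every gene of 21 lists (points, with the number of genes in brackets), the median of each list (black bar) and the median of all 21887 protein-coding genes (dashed line, 327 bp). Medians of the endothelial, immediate-early, metabolic and chromatin lists lie right of the dashed line, those of lung capillary genes and of venous and lymphatic genes close to it at 387 and 379 bp, and those of 6 other lineage lists at 0.

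Over all genes, the most bases at gene ends lay at Klf13, a Krüppel-like factor gene, with 2668 bp, at the circadian and hypoxia factor gene Bhlhe40 with 2433 bp and at Prkch, a protein kinase C gene, with 2337 bp. Fam120a, Slc12a9, Adamtsl4, Stau2, Tatdn1, Tbc1d10b and Gm46294 followed with 2067 to 2183 bp. Over the span the order was that of long genes. Pde4d, a cAMP phosphodiesterase gene of 1302 kb, had 122 peaks over 26415 bp, which is 20.2 bp per kb. Tcf4, a helix-loop-helix factor gene, had 91 peaks over 23872 bp, or 68.5 bp per kb. Arhgap26, Ptprm, Nav2, Foxp1, Ttc28, Dst, Hivep3 and Magi1 had 71 to 110 peaks each. Pde4d had 0 bp at its annotated ends, whereas Ptprm, a receptor phosphatase gene of endothelial junctions, had 1635 bp there.

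Promoter windows with an H3K27ac peak differed in sequence from those without. Of 21238 windows of 300 bases, 10723 (50.5%) overlapped a peak, 3364 were covered whole and 10515 had none. Median CpG observed over expected was 0.79 with a peak and 0.25 without, and median GC content was 62.0% with a peak and 49.7% without. Only 9.83% of windows with a ratio under 0.3 had a peak, against 41.3% from 0.3 to 0.6, 79.2% from 0.6 to 0.9 and 86.2% from 0.9. Of the windows with a peak, 10102 also met an H3K4me3 peak and 621 did not, and these 621 had a median ratio of 0.31.

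Motif letters were searched on both strands and a match is a description of the letters only. The ETS motif CCGGAAG was present in 19.8% of windows with a peak, 3.14% without and 11.6% of all. Within the most CpG-rich class it was present in 24.7% of windows with a peak and 6.59% without, and within the poorest in 2.99% and 1.35%. At endothelial surface and junction genes, 0 of 10 windows with a peak held CCGGAAG. The counts were 0 of 13 for VEGF and angiopoietin, 0 of 11 for Notch and arterial and 0 of 9 for vascular tone genes. For endothelial transcription factor genes the count was 1 of 13, for lung capillary genes 1 of 5 and for venous and lymphatic genes 2 of 9. GGGCGGG (SP/KLF) was present in 50.9% with a peak, 16.5% without and 33.9% of all, but in the most CpG-rich class in 57.8% and 57.7%. CCAAT (NF-Y) was present in 39.1% with a peak, 37.2% without and 38.2% of all, and TGACGTCA (CRE) in 3.44%, 1.01% and 2.24%. TGACNNNGC, the antioxidant response element, was present in 14.99% with a peak, 10.9% without and 12.96% of all. It can share bases with CRE-like and SP/KLF letters, as in the Kdr window.

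Letters rich in A and T ran the other way. The core promoter letters TATAAA were present in 5.85% of windows with a peak, 19.5% without and 12.6% of all. The letters AGATAA, read by zinc finger factors of the GATA family, were present in 5.17% with a peak, 14.2% without and 9.65% of all, and AACAAT, read by SOX factors, in 5.19%, 12.99% and 9.05%. In each CpG class, these 3 were also less frequent with a peak than without. TGANTCA (AP-1) was present in 5.29% with a peak, 8.73% without and 6.99% of all, yet in the CpG-poorest class it was present in 22.2% of the 668 windows with a peak and 10.95% of those without. It was present in 20.1% of the 621 windows with an H3K27ac peak and no H3K4me3 peak. Windows share starts of neighbouring transcripts, so they are not independent, and no test was run on these shares.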

How the data were processed

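ACT-seq was run on 9 targets in wild-type mouse lung endothelial cells, 1 library each, per the labels. The authors deposited raw read counts per region identifier, made with featureCounts 2.0.6 per the file headers. The submitters' processing notes name Trim Galore, STAR and MACS2, with builds mm10 and GRCm38.p6. Whether IgG served in peak calling, how PCR duplicates were handled and whether reads were shifted for the transposase is not given in the sources used here. PCR duplicates without molecular identifiers are not independent molecules, so intervals cover counting error only. Under the header's options a read lying on regions of several identifiers was not counted.

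The 578465 identifiers hold 1309635 regions of 8 joined lists. The lists were separated by a search, with 32 assignments kept, that lets every list follow the genome's order and keep its commonest width as its minimum, with 0 breaks. The H3K27ac list was the one densest in that library. Starts in the file count from 0 and are given here from 1. CPM used table totals. Genes, promoter windows and starts came from RefSeq tables of GRCm38.p6, and the 21887 protein-coding genes of 21 chromosomes were used. Starts are listed for 17492 of these genes. The files pair regions with no genome sequence, so the sequences of peaks were not used here. Scripts used Python 3.11.15, numpy 2.4.6, pandas 2.3.3, scipy 1.17.1 and numba 0.67.0, and were tested on simulated data.

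The members and gene lists were chosen with earlier results of these data known. The text names, per list, the 3 genes with most covered bases over the span and the gene with the fewest, 8 fixed genes, the 10 genes with most bases at ends and over the span, and 10 peaks each by width, by width away from gene ends and by reads of their own. A few genes that this rule picks are not reported here. Other genes and peaks named were chosen after their values were seen. Alternatives changed windows, thresholds, totals, widths and the list separation.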

Additional observations from a re-analysis of the deposited data

Results flagged for a closer look

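Reads of other marks were found in the 220 H3K27ac peaks with reads of their own, which hold no read of IgG, and each total lies above the limit of 3 reads. H3K18ac had 236 reads there, in 53 peaks, with at most 13 in 1 peak. H3K14ac had 154 reads in 37 peaks and H4K8ac 132 reads in 34 peaks. H2AK5ac had 337 reads in 5 peaks, 167 of them in the peak inside Nek3. H3K9ac had 127 reads, of which 125 lay in 1 peak, and H3K4me3 had 52, of which 32 lay beside Clec18a. These libraries held 1477463 to 10044130 reads in all and IgG 365999, and the limit of 3 reads in IgG equals 0.543 CPM per kb.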

How the results depend on the processing

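The count of identifiers at least 2-fold higher in H3K27ac than in IgG moved most, to 4527, with IgG set to at least 3 reads, which was added after the data were seen. It was 29694 with at least 20 reads and 188070 with no minimum. It stayed within 1.5 times of 80341 with a prior count of 0.5, with 4-fold and with both other totals. Over the 220 peaks with reads of their own the H3K27ac density was 37.9 CPM per kb and the IgG density 0, against 3.95 for IgG in the fit without its 100 richest identifiers. The share of peaks at gene ends was 15.9% with 1 kb windows, 28.3% with 5 kb, 15.2% at listed 5′ ends and 22.4% for peaks wider than the minimum. Where another list had to cover at least 50% of the H3K27ac peak, overlaps were 65.8% for H3K18ac, 56.0% for H4K8ac, 51.8% for H3K14ac, 17.0% for H2AK5ac, 24.1% for H3K23ac, 25.3% for H3K4me3 and 21.8% for H3K9ac. For peaks wider than the minimum they were 84.0%, 78.1%, 72.6%, 37.9%, 37.2%, 36.3% and 34.1% in the same order of marks. In neuronal genes the count with a peak was 1 with 1 kb windows, 8 with 5 kb, 10 over the span and 2 for wider peaks, against 4. Leukocyte markers with a peak numbered 13 with 5 kb windows, against 8. Liver, pancreas and muscle genes numbered 3 with 1 kb windows and 3 for wider peaks, against 5, and developmental transcription factors 5 for wider peaks, against 8. The other list counts stayed within 1.5 times. Genome order alone moved 29 of the 114890 regions. No paired analysis was possible because each target had 1 library. The cause of these shifts was not tested beyond what each setting changes by construction.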

Other observations

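H3K27ac peaks were counted against gene number on each chromosome. There were 2.41 peaks per protein-coding gene on X and 0.129 on Y, against 3.31 on chromosome 7, the lowest autosome, and 7.70 on chromosome 18, the highest.

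The hairpins of microRNAs listed by RefSeq were set against the peaks as well. Of 1003 hairpins 79 (7.88%) overlapped an H3K27ac peak and 316 (31.5%) had one within 2 kb. Mir126a, the endothelial microRNA inside Egfl7, had 0 bp on the hairpin and 207 bp within 2 kb. Mir10a and Mir23a had 593 and 512 bp within 2 kb, and Mir221, Mir222, Mir21a and Mir155 had 0.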
